A study of Mus musculus with 12 samples.

Results

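The miR-30 family is a set of microRNAs that share the same seed, the bases near the 5′ end that pair with target mRNAs. A microRNA (miRNA) is cut from a hairpin precursor and loaded into an Argonaute protein, and the guide strand then lowers the stability and translation of mRNAs with sites that match the seed. Members of the family are known in fibroblasts as regulators of connective tissue growth factor and other extracellular matrix genes, and an asterisk arm of the family, miR-30c-2*, has been reported to target the Xbp1 mRNA. The 5 members described here were taken by name from the 611 mouse miRNAs on the array. They are mmu-miR-30a, mmu-miR-30b, mmu-miR-30c, mmu-miR-30d and mmu-miR-30e, written below without the species prefix.

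Levels were measured on 12 1-colour Agilent miRNA arrays hybridised with RNA from embryonic fibroblasts (MEFs) of C57BL/6 mice. The cells were wild type (XBP1WT) or deficient in XBP1 (XBP1KO), the transcription factor made when the endoplasmic reticulum sensor IRE1 splices the Xbp1 mRNA. Some were left untreated, and the rest were given tunicamycin at 2 ug/mL for 12 h or 24 h, which blocks N-linked glycosylation and so causes endoplasmic reticulum stress. This gives 6 groups with 2 arrays apiece, which the series describes as separate experiments. The sources used here do not say whether these came from separate embryos or lines, so p-values measure the spread between these arrays. The design asks how miRNAs respond to tunicamycin with and without XBP1.

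Mature sequences were available from RefSeq (GRCm38.p6) for miR-30a, miR-30c and miR-30e, and miR-30b and miR-30d are named only. The guide strands are shown because their differences decide what the array probes can tell apart, with the seed (bases 2 to 8) in capitals.
miR-30a: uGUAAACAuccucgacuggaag
miR-30e: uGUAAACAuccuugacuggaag
miR-30c: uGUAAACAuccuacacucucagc
miR-384-5p: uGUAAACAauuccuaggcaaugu
The seed was the same in all 4. Among 1679 mature mouse names in the RefSeq table, these 4 held it, and miR-30b and miR-30d could not be counted because the table has no entry for them. Counting from 1 at the 5′ end, miR-30a and miR-30e differed by the single substitution C13U and were 95.5% identical. miR-30a and miR-30c differed at 5 of the 22 positions compared (77.3% identical). How much of the miR-30a RNA binds the miR-30e probes, or the reverse, was not tested.

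The opposite arms of the same hairpins, which the array names with an asterisk, are shown because they carry other seeds.
miR-30a*: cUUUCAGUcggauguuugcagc
miR-30e*: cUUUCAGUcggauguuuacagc
miR-30c-1*: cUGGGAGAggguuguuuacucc
miR-30c-2*: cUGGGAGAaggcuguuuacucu
miR-30a* and miR-30e* shared a seed and differed by G18A, and miR-30c-1* and miR-30c-2* shared another.

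The hairpins lie in pairs on the genome (RefSeq, GRCm38.p6). Mir30a (chr1:23272269-23272339, plus strand) and Mir30c-2 (chr1:23291701-23291784, plus strand) were 19361 bases apart, and the annotation showed no other gene at either. Mir30c-1 (chr4:120769534-120769622, minus strand) and Mir30e (chr4:120772606-120772697, minus strand) were 2983 bases apart, both within the bounds of the protein-coding gene Nfyc, a subunit of the NF-Y transcription factor. Mir30b and Mir30d were neighbours with 0 annotated genes between them. The mature miR-30c is the same from both of its hairpins, so its signal cannot be divided between the chromosome 1 and chromosome 4 loci.

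All 4 untreated arrays were on 1 slide and all 8 tunicamycin arrays on another. Effects of slide and of treatment cannot be told apart. Each of the 4 scans (1 per slide and replicate number) held both genotypes, so genotypes can be compared within a scan. The total unscaled signal over mouse miRNAs was 94800 to 186000 on the untreated arrays and 14100 to 78200 on the tunicamycin arrays, and 120 to 222 mouse miRNAs were detected. Fewer cells, less RNA per cell and weaker hybridisation cannot be told apart in such totals. The values below are therefore scaled signals, in arbitrary units, with each array set to the same 75th percentile. That percentile was taken over the 95 mouse miRNAs that every array detected. The labelled cell type was checked against markers. All 10 fibroblast and mesenchymal miRNAs on the array were detected on at least 1 array and 7 on all 12, and none of 5 blood or 7 epithelial markers was detected on any. Of 2 endothelial markers 1 was detected on no array, of 4 muscle markers 3, and of 3 neural markers 1.

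The log2 table that the authors deposited was not used as the measure of this family. Its values equalled the scanner software's total gene signal, and for 31.1% of the 2189 detected values over all arrays that total was the miRNA's own probe total plus the total of the detected miRNA that precedes it in name order. For the miR-30 members this held for 24 of 59 detected values, of which 1 was among the 20 untreated values and 23 among the 39 tunicamycin values. miR-30e held the total of miR-30d on all 8 tunicamycin arrays and on none of the 4 untreated ones, and its deposited total there was 2.04 to 3.26 times that of its own probes. miR-30b held that of miR-30a or miR-30a* on 7 tunicamycin arrays and 1 untreated array, and at 12 h its deposited total was 14.9 times its own on wild type array 1. miR-30c was affected on 5 tunicamycin arrays, miR-30a on 3 and miR-30d on none. All signals below were recomputed from the spots of each miRNA's own probes.

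**Figure D1:**
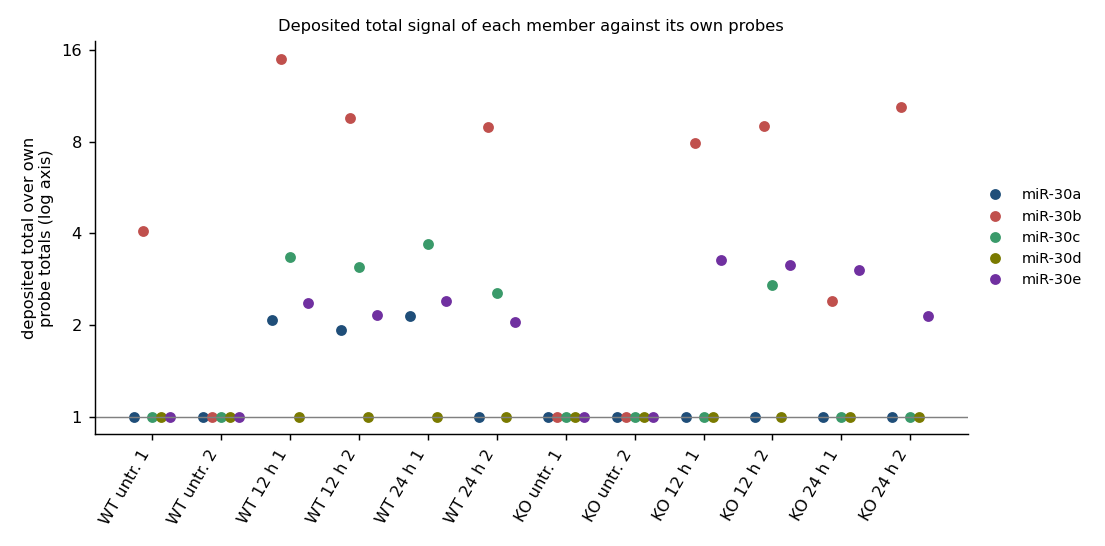
Deposited total signal of each member divided by the summed totals of its own probes (log axis), for each of the 12 arrays. Points at 1 hold only the member's own signal. miR-30e lies between 2.04 and 3.26 on the 8 tunicamycin arrays and at 1 on the 4 untreated arrays, and miR-30d lies at 1 on every array.

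All 5 members passed the low-signal filter in every comparison, and all 5 stayed above the floor of 10.0 on every array. 4 were detected on all 12 arrays, the exception being miR-30b, which wild type array 1 at 24 h did not detect.

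The first comparison was 12 h of tunicamycin against no treatment in wild type cells. In it miR-30c, miR-30d and miR-30e fell by 1.67-fold to 2.08-fold, and miR-30a did not pass the test. miR-30b also passed as lower, but at 12 h it had 0 of 10 spots well above background for each of its probes on both wild type arrays, so its fall is given only as at least 1.69-fold, against its own signal there or the lowest well measured one. A miRNA passed at a Benjamini-Hochberg adjusted p under 0.05 from limma over the 256 tested mouse miRNAs. Of all tested miRNAs 50.8% passed in this comparison and 25.4% fell, and of the 95 detected on every array 35.8% fell. The median difference of the members was -0.75 on the log2 scale, against -0.09 over all tested miRNAs and -0.42 over the 95.

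miR-30b, whose gene neighbours that of miR-30d, had scaled signals of 38.3 and 44.9 in untreated wild type cells and 15.8 and 23.4 at 12 h. Both treated arrays lay below both untreated ones. The software called it detected on both 12 h arrays, but their values are near background, and so is one side of the fitted log2 difference of -1.11 (SE 0.28, limma adjusted p = 0.0149, 2 arrays a group). miR-30e had 87.8 and 103 untreated and 46.1 and 45.5 at 12 h, a log2 difference of -1.06 (SE 0.32, limma adjusted p = 0.0304). Its treated arrays were close to each other and below both untreated ones.

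miR-30c, which is made from both pairs of hairpins, had 162 and 168 untreated and 95.9 and 99.7 at 12 h. Its log2 difference was -0.75 (SE 0.17, limma adjusted p = 0.00957). miR-30d had 109 and 104 untreated and 68.4 and 59.7 at 12 h, with a log2 difference of -0.74 (SE 0.15, limma adjusted p = 0.00611). In both the groups did not overlap.

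miR-30a had 180 and 176 untreated and 166 and 166 at 12 h. The treated arrays were again the lower ones, but the difference was small, at -0.10 (SE 0.10, limma adjusted p = 0.443). It passed as lower after quantile normalization (-1.15, limma adjusted p = 0.00273) and with the percentile over all mouse miRNAs (-0.68, 0.0497), and as higher after the normexp correction described below (0.55, 0.038) and with the total gene signal (0.82, 0.0198). The call for miR-30e was lost when any 1 of the 4 arrays compared was left out (limma adjusted p = 0.0844 to 0.152). That for miR-30b was lost without the first 12 h array (limma adjusted p = 0.0686). Without the second untreated array miR-30d alone passed, with limma adjusted p of 0.0828 for miR-30b and 0.0577 for miR-30c.

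**Figure D2:**
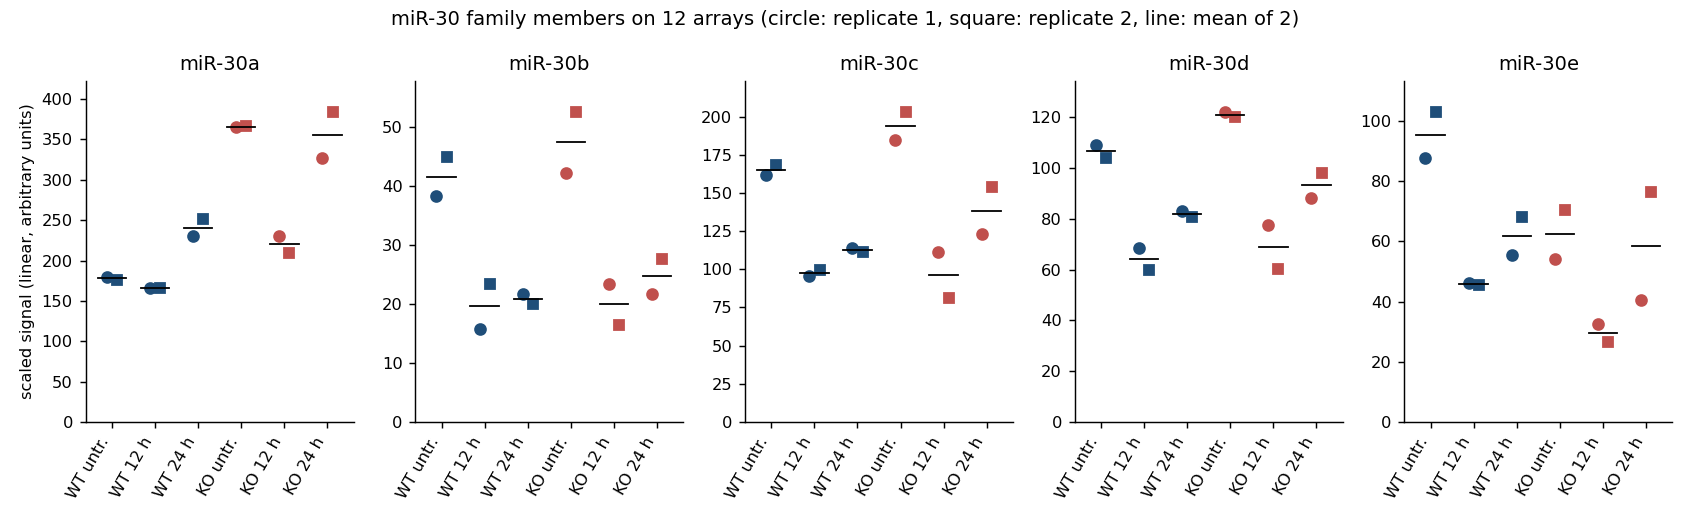
Scaled signal (linear axis from 0, arbitrary units) of the 5 members on each of the 12 arrays, by genotype and treatment; circles are replicate 1, squares replicate 2 and lines the mean of 2. The 12 h arrays of miR-30b, miR-30c, miR-30d and miR-30e lie below the untreated arrays of their genotype, and miR-30a is highest on the untreated and 24 h arrays of the knockout.

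In XBP1KO cells all 5 members fell after 12 h, by 1.66-fold to 2.1-fold for miR-30a, miR-30c, miR-30d and miR-30e. The fall of miR-30b has no fold here, because on 1 of the 2 treated arrays neither of its probes had 50% of its spots well above background. Of all tested miRNAs 49.2% passed here and 25.4% fell, and of those detected on every array 36.8% fell. The members' median log2 difference was -1.03, against 0.00 over all tested and -0.44 over the 95. The untreated groups are the same arrays that serve the 24 h comparisons.

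miR-30b went from 42.3 and 52.6 to 23.4 and 16.5, a log2 difference of -1.26 (SE 0.28, limma adjusted p = 0.0086). miR-30e went from 54.3 and 70.5 to 32.6 and 26.6, a difference of -1.07 (SE 0.32, limma adjusted p = 0.0293). In both the groups did not overlap, and the 12 h signals of miR-30b are again near background.

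miR-30c went from 185 and 203 to 111 and 81.5, at -1.03 (SE 0.17, limma adjusted p = 0.00265), and miR-30d from 122 and 120 to 77.5 and 60.4, at -0.82 (SE 0.15, limma adjusted p = 0.00412). miR-30a went from 365 and 367 to 231 and 209, at -0.73 (SE 0.10, limma adjusted p = 0.00128). In wild type cells the log2 difference of miR-30a was -0.10, and in both genotypes its 12 h arrays lay below the untreated ones. The call for miR-30e was lost when any 1 of the 4 arrays compared was left out (limma adjusted p = 0.0606 to 0.161), or either untreated wild type array (0.054 and 0.0542). The call for miR-30b was lost without the second untreated array (0.0543) or the second 12 h array (0.0648), again by limma adjusted p.

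The 12 h response of miR-30a differed between the genotypes by 0.63 on the log2 scale (wild type minus knockout, SE 0.14), a limma adjusted p of 0.0486 that lies just under the threshold. Of all tested miRNAs 5.86% passed in this comparison, and 3.52% were on its positive side. The other 4 members differed by 0.02 to 0.27 and did not pass (limma adjusted p = 0.946 to 1). The call for miR-30a was lost under 11 of the 13 other settings tried, and leaving out any single array other than the KO arrays at 24 h raised the limma adjusted p to between 0.0574 and 0.172. The value of the difference stayed between 0.33 and 1.86 in all of them.

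At 24 h in wild type cells miR-30a was the only member to pass, and it rose, from 180 and 176 untreated to 230 and 251 (log2 difference 0.43, SE 0.10, limma adjusted p = 0.0233). Of all tested miRNAs 17.6% passed here, and 2.73% rose. Both 24 h arrays were above both untreated ones. The call was lost with quantile normalization (limma adjusted p = 0.365), the percentile over all mouse miRNAs (0.214), the total gene signal (0.0676), outlier spots kept (0.05), the miRNAs detected on every array alone (0.0941) and scan as a fixed block (0.0631), and the deposited table turned its sign (-1.16, 0.12). It was also lost when either untreated wild type array or the second 24 h array was left out (limma adjusted p = 0.105 to 0.142), or either untreated knockout array (0.0542 and 0.0547).

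The median log2 difference of the 5 members at 24 h in wild type cells was -0.55. It was 0.00 over all tested miRNAs and -0.08 over the 95 detected on every array. The 4 members other than miR-30a had lower means than in untreated cells, but none passed. Their log2 differences were -0.99 for miR-30b (SE 0.28, limma adjusted p = 0.0552), -0.55 for miR-30c (SE 0.17, 0.0765), -0.38 for miR-30d (SE 0.15, 0.151) and -0.63 for miR-30e (SE 0.32, 0.254). On the first 24 h array miR-30b was near background and not called detected, so its difference cannot be read as a fold. miR-30b and miR-30c passed when certain arrays of other groups were left out, with limma adjusted p of 0.0354 to 0.0407.

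In XBP1KO cells no member passed at 24 h, where 14.1% of all tested miRNAs did, by limma. Unadjusted, 3 members had a limma p under 0.05, as did 57 of the 256 tested miRNAs. miR-30b had the largest difference, from 42.3 and 52.6 to 21.8 and 27.6 (log2 -0.94, SE 0.28, limma adjusted p = 0.0801), with no overlap. miR-30c went to 123 and 154 and miR-30d to 88.3 and 97.9, with log2 differences of -0.50 and -0.38. miR-30a, at 327 and 384, and miR-30e, at 40.6 and 76.3, overlapped their untreated arrays. The last pair of values shows the widest replicate spread in the family, and the second of these arrays was 1.52 log2 units above the 12 h array of its scan while the first was 0.32 above. No member's 24 h response passed the test of a difference between genotypes, where 4.69% of all tested miRNAs did, and miR-30a had the lowest p of the 5 (log2 0.48, SE 0.14, limma adjusted p = 0.132).

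**Figure D3:**
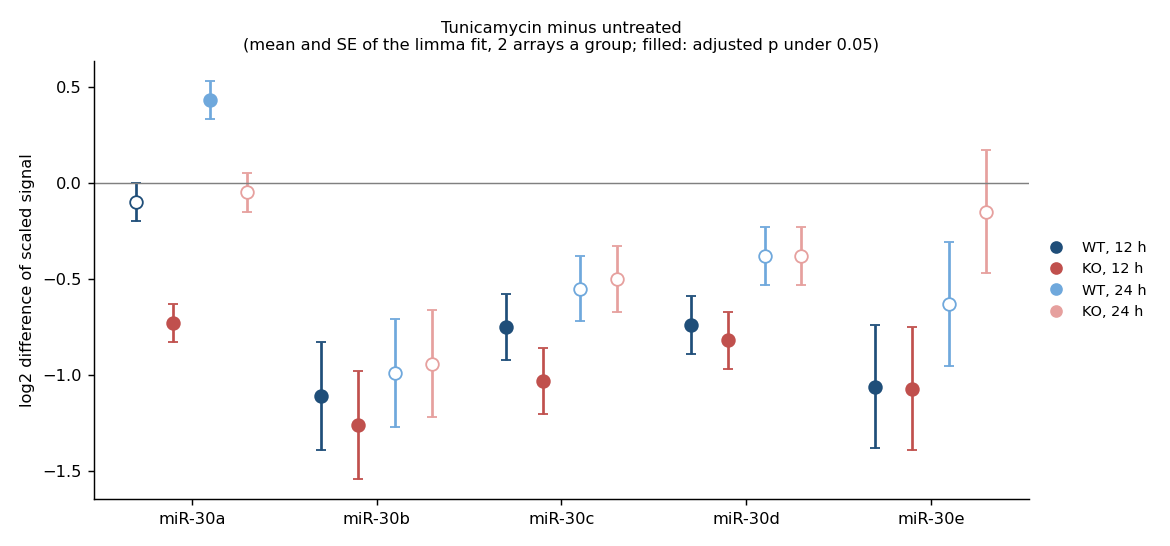
Log2 difference of scaled signal, tunicamycin minus untreated, for each member, genotype and time, with the SE of the limma fit (2 arrays a group); filled points passed at an adjusted p under 0.05. At 12 h the points of miR-30b, miR-30c, miR-30d and miR-30e lie between -0.74 and -1.26 in both genotypes, and miR-30a lies at -0.10 in wild type and -0.73 in knockout cells.

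Between 12 h and 24 h, arrays on the same slide, all 5 members had higher means in both genotypes. In wild type cells miR-30a alone passed (log2 0.53, SE 0.10, limma adjusted p = 0.0117), where 21.9% of all tested miRNAs passed and 3.12% rose. Without the second 12 h wild type array its limma adjusted p was 0.0563. In XBP1KO cells miR-30a rose by 0.69 (SE 0.10, limma adjusted p = 0.00352) and miR-30c by 0.53 (SE 0.17, 0.048), where 39.5% of all tested miRNAs passed and 17.6% rose. The median difference of the 95 miRNAs detected on every array was 0.36 in wild type and 0.50 in knockout cells, beside 0.36 and 0.53 for the members.

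The rise of miR-30c in the knockout rested on the second replicate's scan, where it was 0.91, against 0.14 in the first. It was lost by limma adjusted p (0.0624 to 0.247) when any single array was left out other than the first KO arrays at 12 h and 24 h. miR-30a rose in both scans of both genotypes, by 0.47 and 0.59 in wild type and by 0.50 and 0.88 in knockout cells.

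These differences depend on how the arrays are brought to a common scale. The members' median at 12 h in wild type cells was -1.72 after quantile normalization and -1.33 after scaling to the 75th percentile of all mouse miRNAs, settings that moved the median of all tested miRNAs from -0.09 to -0.74 and -0.55. After a normexp background correction with an offset of 50 the members' median was 0.48 and that of all tested miRNAs 1.23. The members' own unscaled probe totals were 4.84 to 125 on the tunicamycin arrays and 42.1 to 490 on the untreated ones, so the offset was of the size of the signals. In wild type cells at 12 h the share of passing miRNAs that were higher was 50% as scaled here, 31.5% after quantile normalization and 94.3% after normexp. In knockout cells at 12 h these shares were 48.4%, 33.5% and 89.6%, and 35.9% with the percentile over all mouse miRNAs. At 24 h they were 15.6% as scaled here and 96.4% after normexp in wild type cells, and 22.2%, 6.9% after quantile normalization, 6.25% with that percentile and 94.2% after normexp in knockout cells. In these 4 settings and in both genotypes the median member lay below the median of all tested miRNAs at 12 h. With the total gene signal this held in knockout cells (-0.49 against 0.00) and not in wild type cells (0.82 against 0.00). The signed differences between slides are therefore given relative to the scaling named.

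Ratios of members within an array do not change with an array's scale factor, so they were tested separately. There are 10 pairs, tested with exact two-sided permutations and adjusted over the 10 by the Benjamini-Hochberg method. For tunicamycin against untreated the labels were exchanged within each genotype (225 permutations, smallest p 0.00444), with 8 treated and 4 untreated arrays.

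miR-30a gained on miR-30c, miR-30d and miR-30e under tunicamycin, and its ratio to miR-30b was also higher. The miR-30b signal in that ratio was near background on both 12 h arrays and on 1 of the 2 at 24 h in wild type cells, and on 1 of the 2 at 12 h in knockout cells, so its size cannot be read as a fold. The log2 ratio of miR-30a to miR-30b was 2.23 and 1.97 in untreated wild type cells, 3.40 and 2.83 at 12 h and 3.41 and 3.65 at 24 h. In the knockout it was 3.11 and 2.80 untreated, 3.31 and 3.66 at 12 h and 3.90 and 3.80 at 24 h. Within each genotype the treated arrays were above the untreated ones, and the mean difference was 0.96 (exact permutation p = 0.00444, the smallest possible, adjusted p = 0.0222).

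The log2 ratio of miR-30a to miR-30c was 0.16 and 0.07 untreated, 0.79 and 0.74 at 12 h and 1.01 and 1.18 at 24 h in wild type cells. In knockout cells it was 0.98 and 0.85 untreated, 1.05 and 1.36 at 12 h and 1.42 and 1.32 at 24 h. Each treated array was again above the untreated arrays of its genotype, with a mean difference of 0.59 (exact permutation p = 0.00444, adjusted p = 0.0222). The ratios to miR-30d and miR-30e rose by 0.46 and 0.62 (exact permutation p = 0.0133 and adjusted p = 0.0222 for both).

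miR-30b fell relative to miR-30c by 0.37 and relative to miR-30d by 0.50 (exact permutation p = 0.00889 and adjusted p = 0.0222 for both), with the same limit on its treated signals. The remaining 4 pairs, those of miR-30c with miR-30d and of miR-30e with miR-30b, miR-30c and miR-30d, differed by -0.35 to 0.15 and did not pass (exact permutation, adjusted p = 0.127 to 0.862). The normexp correction reversed the miR-30a to miR-30b difference to -0.50 and those to miR-30d and miR-30e to -0.06 and -0.26, while that to miR-30c stayed positive at 0.27. Of the 10 pairs 8 passed under that correction. Without the second untreated wild type array none of the 10 pairs passed, and without the second untreated knockout array 3 did, with fewer permutations available.

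**Figure D4:**
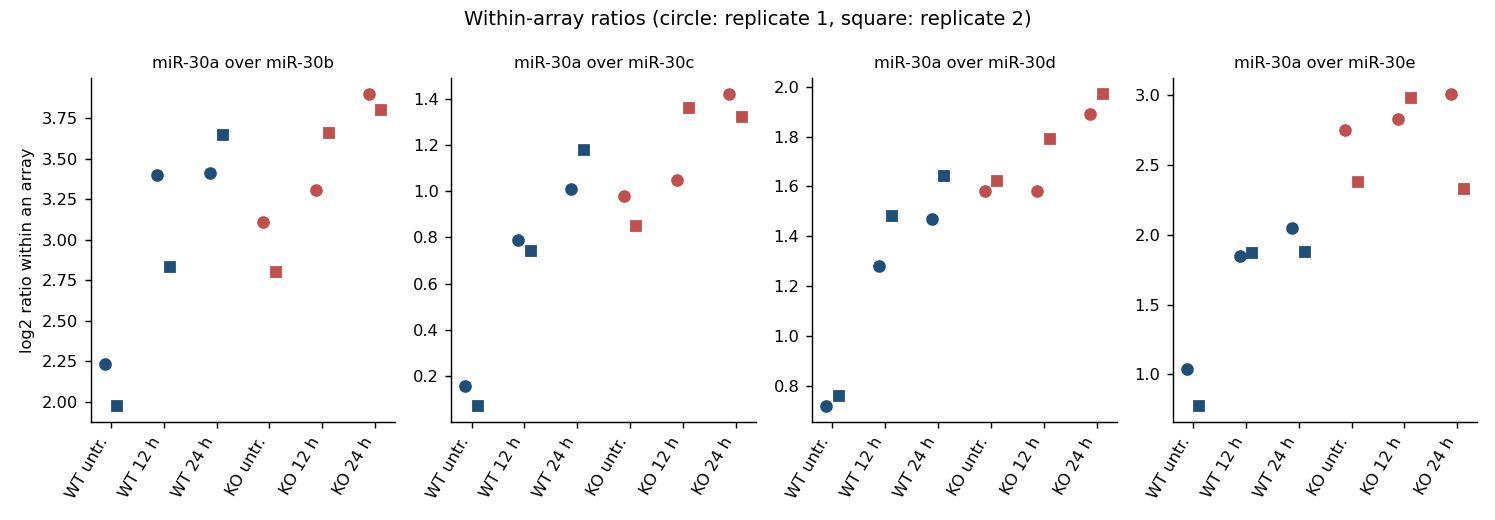
Log2 ratio of miR-30a to each other member within an array, for the 6 groups; circles are replicate 1 and squares replicate 2. For each of the 4 ratios the untreated wild type arrays are the lowest, and the ratio to miR-30e separates the 6 knockout arrays (2.33 to 3.01) from the 6 wild type arrays (0.77 to 2.05).

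The genotypes were compared next, in each condition. In untreated cells miR-30a was 2.05-fold higher in XBP1KO than in XBP1WT cells, at 365 and 367 against 180 and 176 (log2 1.04, SE 0.10, limma adjusted p = 0.000478). It was the only member that passed, where 12.5% of all tested miRNAs passed and 5.08% were higher. Within the scans of replicates 1 and 2 the difference was 1.02 and 1.06. The call was lost with quantile normalization (log2 0.78, limma adjusted p = 0.0602), normexp (0.66, 0.0843) and the deposited table (1.76, 0.128).

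At 12 h miR-30a was 231 and 209 in knockout against 166 and 166 in wild type cells, with no overlap, but it did not pass (log2 0.40, SE 0.10, limma adjusted p = 0.0684). Its sign turned with the total gene signal (-0.77), the deposited table (-0.09) and normexp (-0.11), also without passing. No other member passed either, where 5.08% of all tested miRNAs did by limma. miR-30a was the 1 member with an unadjusted p under 0.05, which 41 of the 256 tested miRNAs had. At 24 h it was 327 and 384 against 230 and 251 and passed (log2 0.56, SE 0.10, limma adjusted p = 0.0155), where 7.81% of all tested miRNAs passed and 4.69% were higher. This call was lost with quantile normalization (limma adjusted p = 0.335), the percentile over all mouse miRNAs (0.0583), the deposited table (0.55) and normexp (0.714). It was also lost with the total gene signal, where the log2 difference was 0.04. The knockout array was the higher in all 6 scan and condition pairs, by 0.33 to 1.06. Without wild type array 1 at 24 h the limma adjusted p at that time was 0.0657.

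miR-30e, which differs from miR-30a by 1 base, did not share that direction. Its untreated signals were 54.3 and 70.5 in knockout and 87.8 and 103 in wild type cells, a log2 difference of -0.62 with no overlap that did not pass (SE 0.32, limma adjusted p = 0.379). At 12 h the difference was -0.64 (SE 0.32, limma adjusted p = 0.435), also with no overlap, and at 24 h it was -0.14, with the scans at -0.45 and 0.17. miR-30b, miR-30c and miR-30d differed between genotypes by -0.04 to 0.29 over the 3 conditions, and none passed (limma adjusted p = 0.455 to 1).

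Set against each other within arrays, miR-30a and miR-30e showed the widest gap between genotypes. The log2 ratio of miR-30a to miR-30e was 1.04 and 0.77 untreated, 1.85 and 1.87 at 12 h and 2.05 and 1.88 at 24 h in wild type cells. In knockout cells it was 2.75 and 2.38, 2.83 and 2.98, and 3.01 and 2.33. All 6 knockout arrays lay above all 6 wild type arrays, by a mean of 1.14 or 2.2-fold (exact two-sided permutation within conditions, 216 permutations, p = 0.00926, adjusted p = 0.0265 over 10 pairs). Within scans the gap was 1.71 and 1.61 untreated, 0.98 and 1.11 at 12 h, and 0.96 and 0.45 at 24 h.

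miR-30a was also higher relative to miR-30b, miR-30c and miR-30d in the knockout, by 0.51 to 0.52, and these 3 were higher relative to miR-30e, by 0.62 to 0.63 (exact permutation, adjusted p = 0.0265 for all 6). The limit given above on the treated signals of miR-30b holds here too, so the sizes of its ratios cannot be read as folds. Within scans the miR-30a to miR-30b difference was 0.88 and 0.83 untreated, -0.09 and 0.83 at 12 h, and 0.49 and 0.15 at 24 h. The 3 pairs among miR-30b, miR-30c and miR-30d differed by 0.01 or less in size (exact permutation, adjusted p = 0.972). The 7 pairs that passed were thus those that held miR-30a or miR-30e. Under normexp 9 of the 10 passed, among them these 3, at -0.29, -0.20 and 0.08 (exact permutation, adjusted p = 0.0116 to 0.0206), while miR-30b to miR-30e did not. Without the first knockout array at 24 h 2 of the 10 pairs passed, and without the second wild type array at 24 h 4 did. With labels exchanged only within a replicate number and condition (64 permutations) none of the 10 pairs passed, and the adjusted exact permutation p of the miR-30a to miR-30e ratio was 0.0521. The smallest p these permutations can give is 0.0312, so 7 pairs would have had to reach it for any to pass, and 6 did.

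**Figure D5:**
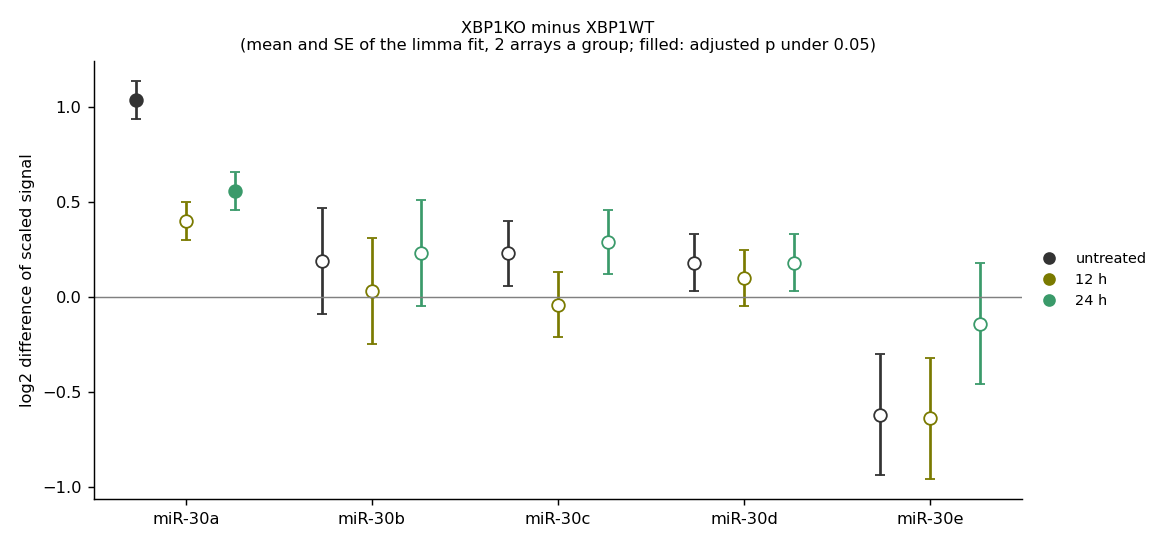
Log2 difference of scaled signal, XBP1KO minus XBP1WT, for each member and condition, with the SE of the limma fit (2 arrays a group); filled points passed at an adjusted p under 0.05. miR-30a lies above 0 in all 3 conditions (0.40 to 1.04) and miR-30e below 0 (-0.14 to -0.64).

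The array measures the 5 members with 11 probes, and the probes of a member were compared. A probe was taken as measured in a comparison where at least 50% of its spots were well above background on all arrays of both groups. Over the 7 comparisons of treatment and genotype this left 16 cases in which over 1 probe of a member was measured, and in 15 the probes had the same sign. The exception was miR-30a at 24 h against untreated in the knockout, with -0.61, -0.11 and 0.06. For miR-30a in untreated cells, knockout against wild type, the 3 probes gave 0.98 to 1.17, and for miR-30e both probes gave -0.59 and -0.63. miR-30b was measured at 12 h by no probe under this rule.

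Over the 6 groups miR-30a had its highest means in untreated and 24 h knockout cells (log2 scaled signal 8.51 and 8.47, ranges overlapping). It was lower in 24 h wild type (7.91) and 12 h knockout cells (7.78), which also overlapped, and then came untreated (7.48) and 12 h wild type cells (7.38). miR-30b, miR-30c and miR-30d had another order, the untreated groups first in each, knockout before wild type. Their lowest groups were the 12 h ones, whose genotypes overlapped for all 3. miR-30e was highest in untreated wild type cells (6.57) and lowest in 12 h knockout cells (4.88), and the 4 groups between, from 5.95 to 5.52, included 3 neighbouring pairs that overlapped.

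Across the 12 arrays the log2 levels of miR-30c and miR-30d had a Pearson r of 0.97 and those of miR-30b and miR-30c 0.95. miR-30a had r of 0.07 with miR-30e and 0.34 to 0.57 with the others. Among 105 other mouse miRNAs above the floor on every array, the most like miR-30a were miR-199b* (r = 0.872), miR-221 (0.855) and miR-15b (0.827). Those most like miR-30b were miR-26a (0.957), miR-130a (0.914) and miR-322 (0.901). Those most like miR-30c were miR-130a (0.974), miR-199a-5p (0.965) and miR-26a (0.954), and miR-30d had miR-130a (0.968), miR-199a-5p (0.939) and miR-107 (0.928). miR-30e had miR-100 (0.946), miR-15a (0.933) and miR-16 (0.885). These 12 points share slides, scaling and total signal, and the values are descriptions.

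Of the asterisk arms printed above, and miR-30b*, 3 of 5 were detected on 0 of the 12 arrays. These were miR-30b*, miR-30c-1* and miR-30c-2*. The scaled signal of miR-30c-2*, the arm reported to target Xbp1, was -4.21 to 3.59, not well above background in any group, so no fold is given. miR-384-5p, which has the seed of the family and lies outside it by name, was also detected on no array.

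miR-30a* and miR-30e* were tested and passed in none of the 11 comparisons. miR-30a* had 11 and 13.1 in untreated wild type and 26.4 and 27.2 in untreated knockout cells, with no overlap (log2 1.16, SE 0.34, limma adjusted p = 0.0803). In untreated wild type cells its probes had 0 to 4 of 10 spots well above background, so the wild type values are near background. The knockout arrays were 2.24-fold above those values, a difference that did not pass and is no firm minimum. On the 4 wild type tunicamycin arrays 0 of 10 spots of either probe were well above background. Its probes had 0 to 4 of 10 such spots on the knockout arrays at 12 h. On the second knockout array at 24 h they had 0 and 3 of 10. Ratios to miR-30a* on all these arrays, and on the untreated wild type ones, are ratios to background or to signals near it. No reading of them as a balance of the arms is possible. With that limit the log2 ratio of miR-30a to miR-30a* differed between genotypes by 0.00 (exact permutation p = 0.981) and between tunicamycin and untreated arrays by -0.27 (exact permutation p = 0.236). Under the normexp correction the first of these became 0.63 (exact permutation p = 0.00926) and the second -0.91 (exact permutation p = 0.00444). miR-30e* had 22.8 and 24.2 in untreated wild type and 16.7 and 17.7 in untreated knockout cells (log2 -0.45, SE 0.40, limma adjusted p = 0.74).

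A list of 13 miRNAs linked to the unfolded protein response in the literature gives the setting of the family's 12 h values, and 9 of them were tested. In wild type cells at 12 h 3 were higher and 5 lower, where 25.4% of all tested miRNAs were higher and 25.4% lower, with a median log2 difference of -0.60. In knockout cells 3 were higher and 2 lower, with a median of -0.31, where 61 of the 256 tested miRNAs were higher and 25.4% lower. None passed in the difference between genotypes at 12 h or 24 h, by limma. At 24 h 2 were lower in wild type and 1 was higher in knockout cells. The same held for 38 and 8 of all 256 tested miRNAs. Of all tested miRNAs 25.4% were lower at 12 h in either genotype. Of the 95 detected on every array 35.8% were lower in wild type and 36.8% in knockout cells. Beside that, 5 of the 9 tested fibroblast and mesenchymal miRNAs were lower at 12 h in wild type and 8 in knockout cells, with none higher. Their median log2 differences were -0.69 and -1.30. Their summed scaled signal was 19980 and 26419 in untreated wild type and knockout cells and 13556 and 13437 at 12 h. Of the 4 muscle markers the 1 that was tested, miR-206, was higher at 12 h in both genotypes, by 2.54 and 2.75 on the log2 scale. The summed scaled signal of the 4 was 4.92 and 8.69 in untreated wild type and knockout cells and 68.3 at 12 h in both. Both untreated sums were below the floor of 10.0, so the log2 differences of miR-206 start at or near the floor and give no fold. Of the 3 neural markers 1, miR-9, was lower at 12 h in knockout cells, where their sum went from 31.5 to 4.74, and none passed in wild type cells, where it went from 8.58 to 0.214. Only the first of these sums was above the floor. The part of these markers in the 12 h values of the miR-30 members was not tested.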

How the data were processed

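Scanner files of 12 1-colour arrays were used. Per the file headers, spot intensity values were made with Agilent Feature Extraction 10.7.1.1, background-subtracted and not normalized between arrays. The authors' deposited series table holds log2 values, which differ from the logarithm of the scanner software's gene totals by at most 1.15e-06. Control and outlier spots were left out, spots averaged per probe, probes summed per miRNA (13000 spots, 1857 probes, 650 miRNAs, 0 saturated spots), and arrays scaled to a common 75th percentile. The floor was the 5th percentile of detected signals (10.0), and tests ran on the log2 scale. limma 3.58.1 in R 4.3.3 fitted 1 mean per group to 256 mouse miRNAs, those that both arrays of some group detected (lmFit, contrasts.fit, eBayes with trend, 6 residual degrees of freedom). It gave 11 comparisons, each adjusted by Benjamini-Hochberg. The fit and the permutation test were tested on simulated data. Plots used matplotlib 3.10.9 in Python 3.11.15. The members are named by the family, the most alike miRNAs by the highest r, and arms and lists by name. Members and lists were chosen with earlier results of these data known. The number of arrays limits the precision. A match of a member's deposited total to its own or its own plus a preceding total was called within a relative tolerance of 0.0002. Files had no mean-signal column, so the normexp alternative used the median signal.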

Additional observations from a re-analysis of the deposited data

Results flagged for a closer look

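The 12 h response of miR-30a differed between the genotypes by 0.63 on the log2 scale, wild type minus knockout, in a test of that difference itself (limma adjusted p = 0.0486, 2 arrays a group). Scaled signals went from 180 and 176 to 166 and 166 in wild type cells and from 365 and 367 to 231 and 209 in knockout cells. The sign was the same under all 13 other settings tried, and the call was lost under 11 of them.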

How the results depend on the processing

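With 2 arrays a group, single arrays decided many calls, and slide and treatment were one. The slide as a random block could not be fitted, since each group lies on 1 slide. Of 55 member differences, 54 kept sign and side with own probe totals, 54 with scan as a random block, 53 with the replicate block, 52 with scan as a fixed block, 51 with all mouse miRNAs tested and 50 with outlier spots kept. With only the miRNAs detected on every array, 40 of 44 did. The block settings and those that change the set of miRNAs tested leave the differences themselves unchanged, so there only the call could change. Agreement was lower with the brightest probe (46), the percentile over all mouse miRNAs (40), quantile normalization (34), total gene signal (25), the unscaled deposited table (23) and normexp (18). The total gene signal and the deposited table hold other miRNAs' totals, the deposited fit leaves out missing values such as miR-30b on wild type array 1 at 24 h, and normexp adds an offset of 50. For other settings the cause was not tested. The normexp setting, own probe totals and scan as a fixed block were chosen after seeing the data.

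Members passing in wild type at 12 h were 4, against 5 with quantile normalization and with the percentile over all mouse miRNAs, where miR-30a also passed as lower, 3 with all mouse miRNAs tested and with miRNAs detected on every array, 2 with total gene signal, 1 with the deposited table and 2 with normexp. In knockout at 12 h they were 5, against 2 with total gene signal, 3 with the deposited table and 0 with normexp. There the call for miR-30e was also lost with the brightest probe (limma adjusted p = 0.0518) and with all mouse miRNAs tested (0.0596). In wild type at 24 h they were 1, against 0 with the percentile over all mouse miRNAs, with miRNAs detected on every array and with scan as a fixed block, and 2 with normexp. The count of 1 hides a change of member: miR-30b passed as lower in place of miR-30a with quantile normalization (-1.49) and outlier spots kept (-1.10), and miR-30d with total gene signal (-0.65) and the deposited table (-2.51). In knockout at 24 h they were 0, against 2, 3 and 2 with total gene signal, the deposited table and normexp. In the genotype difference at 12 h the count was 1, against 0 under the 11 settings that lost miR-30a. For 24 h against 12 h it was 1 in wild type, against 4 with quantile normalization, 5 with the percentile over all and 0 with total gene signal, the deposited table, normexp and miRNAs detected on every array. In knockout it was 2, against 5, 5, 0, 0 and 0 in the first 5 of these settings, and 1 with outlier spots kept, all mouse miRNAs tested, the replicate block and scan as a fixed block. For knockout against wild type, untreated, it was 1, against 0 with quantile normalization, the deposited table and normexp. At 12 h it was 0, against 1 with the brightest probe. At 24 h it was 1, against 0 with quantile normalization, the percentile over all, total gene signal, the deposited table and normexp.

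Within a slide the replicate number coincides with the scan, so same-numbered arrays of a slide shared a scan. Over 15 pairs of groups the correlation of same-numbered deviations ran from -0.55 to 0.87, with 6 over 0.1, which did not meet the bar set for pairing. Pairs of an untreated and a tunicamycin group lie on different slides and share no scan. The check pools them with the rest, so it cannot show that arrays of the same scan were unpaired. With the replicate block the limma adjusted p of the miR-30a difference at 12 h was 0.092, and the pairs passing for genotype went from 7 to 0 while those for tunicamycin stayed at 6. For genotype the block leaves 64 permutations with a smallest p of 0.0312, which 6 pairs reached and 7 would need. Pairs passing for tunicamycin were 1 with quantile normalization, 1 with total gene signal, 3 with the deposited table and 8 with normexp. For genotype they were 2, 0, 0 and 9.

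With 1 array left out, the members passing ranged from 1 to 4 (wild type, 12 h), 3 to 5 (knockout, 12 h), 0 to 3 (wild type, 24 h), 0 to 1 (knockout, 24 h), 0 to 1 (either genotype difference), 0 to 1 (24 h against 12 h, wild type) and 1 to 3 (knockout). For knockout against wild type they ranged from 1 to 1 untreated, 0 to 1 at 12 h and 0 to 1 at 24 h. The pairs passing ranged from 0 to 8 for tunicamycin and 2 to 7 for genotype. The miR-30a to miR-30a* difference ranged from -0.37 to -0.20 for tunicamycin and -0.18 to 0.17 for genotype. Where 1 array was left in a group, it was assumed to vary like the other groups.

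Many member differences that passed in neither setting changed sign, 18 with normexp, 16 with the deposited table, 15 with total gene signal, 9 with quantile normalization, 6 with the brightest probe, 4 with the percentile over all mouse miRNAs and 1 with outlier spots kept. Those that passed in at least 1 of the settings compared and changed sign were these. With normexp, wild type at 12 h gave 0.55 for miR-30a, 0.95 for miR-30b, 0.16 for miR-30c, 0.47 for miR-30d and 0.48 for miR-30e. Knockout at 12 h gave 0.60 for miR-30b, 0.11 for miR-30d and 0.45 for miR-30e. At 24 h miR-30b gave 0.92 in wild type and 0.81 in knockout, and miR-30e 0.82 in knockout. With total gene signal, wild type at 12 h gave 0.82, 1.39, 0.86 and 0.04 for miR-30a, miR-30b, miR-30c and miR-30e. Knockout gave 1.63 for miR-30b and 0.42 for miR-30e at 12 h and 1.01 for miR-30e at 24 h. From 12 h to 24 h miR-30a gave -0.13 in wild type and miR-30c -0.20 in knockout. With the deposited table these were -0.54 and -0.50, miR-30b in knockout at 12 h was 0.07 and miR-30a in wild type at 24 h was -1.16.

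Among ratios under tunicamycin, normexp gave -0.50, -0.06 and -0.26 for miR-30a to miR-30b, miR-30d and miR-30e. It gave 0.76, 0.44 and 0.24 for miR-30b to miR-30c, miR-30d and miR-30e, -0.53 for miR-30c to miR-30e and -0.21 for miR-30d to miR-30e. Total gene signal gave -0.82, -0.03 and -0.34 for miR-30a to miR-30b, miR-30c and miR-30e, 0.79 and 1.67 for miR-30b to miR-30c and miR-30d, and -1.19 for miR-30d to miR-30e. The deposited table gave -1.29, -0.03, -0.34, 1.23, 2.08 and -1.19 for the same 6. For genotype, miR-30a to miR-30b was -0.01 with quantile normalization, miR-30a to miR-30d was 0.00 with total gene signal and with the deposited table, miR-30b to miR-30e was -0.37 with the deposited table, and miR-30c to miR-30e was -0.47 with both. The miR-30a to miR-30a* difference for tunicamycin was -0.91 with normexp and 0.78 with total gene signal. For genotype it was 0.63 with normexp, 3.22 with the deposited table, 0.02 with outlier spots kept and 0.00 with own probe totals.

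Counts over all tested miRNAs in the 4 tunicamycin comparisons were 130, 126, 45 and 36 (wild type and knockout at 12 h, then at 24 h), and ranged over the settings from 40 to 192, 48 to 183, 16 to 192 and 15 to 190. Those of the genotype differences at 12 h and 24 h were 15 and 12, with ranges of 0 to 26 and 0 to 24. For 24 h against 12 h they were 56 and 101, with 12 to 93 and 6 to 139. For knockout against wild type they were 32, 13 and 20, with 3 to 35, 0 to 26 and 0 to 27.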
